A study of Mus musculus with 9 samples.

Results

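The 35 genes described here encode proteins that interferon induces against viruses, together with the sensors of foreign or misplaced nucleic acid that lead to interferon production. They were taken by gene symbol from a deposited table of 27207 genes, and all 35 were found and carried enough counts to be tested. The RNA was that of entire lungs taken from mouse embryos close to birth (E18.5) and gave 9 libraries in 3 groups of 3. One group was wild type. The other groups were conditional knockouts (CKO) of the DNA methyltransferase gene Dnmt1, with the genotype given as Tbx4-rtTA, Tet-O-Cre and Dnmt1-D/D. Lungs of the weak CKO group were hypoplastic, and lungs of the strong CKO group were hypoplastic and also haemorrhagic throughout the tissue. Tbx4-rtTA with Tet-O-Cre is a driver used to reach lung mesenchyme, so a whole lung mixes targeted cells with others, and no alleles beyond those above, treatment or litter of origin were given in the sources used here. The 3 libraries of a group were not stated to come from separate litters, so the p-values cover only how these samples vary, which may be technical variation. Libraries carry the names of their titles, WT, MUT_W for weak CKO or MUT_S for strong CKO, then a library number and a last digit.

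Interferons are secreted proteins made when a cell detects viral nucleic acid. RIG-I (Ddx58) and MDA5 (Ifih1) bind double-stranded RNA in the cytoplasm and signal through MAVS, TLR3 does so in endosomes, and STING (Tmem173) relays the detection of cytoplasmic DNA. IRF3 and IRF7 then switch on interferon genes, and secreted interferon acts through its receptor on factors that include STAT2 and IRF9, which bind an element called ISRE in front of genes such as Ifit1 and Isg15. In several cultured cell types, loss of DNA methylation is known to release endogenous retroviral transcripts that these sensors detect, a state called viral mimicry. Whether the same genes come on in these lungs is the question addressed here. Transcripts of endogenous retroviruses themselves were not analysed here.

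The sequences below mark matches to patterns of elements through which interferon acts, in 3 of the genes whose levels differed most between libraries. Whether the matches are bound or active was not tested. Herc6 and Xaf1, also among the genes with the largest changes, held no such match in the stretch searched. Each is the run of 250 bases before a RefSeq transcript start, read 5′ to 3′ on the strand of the gene, on GRCm38.p6. For Ifit1 (chr19:34640639-34640888, plus strand) and Isg15 (chr4:156200819-156201068, minus strand) the capitals mark the ISRE-type match, written here as GAAA, any 2 bases, GAAA on either strand. For Irf1 (chr11:53769764-53770013, plus strand) they mark the match to TTCNNNGAA, the GAS-type element known from interferon gamma signalling.
Ifit1: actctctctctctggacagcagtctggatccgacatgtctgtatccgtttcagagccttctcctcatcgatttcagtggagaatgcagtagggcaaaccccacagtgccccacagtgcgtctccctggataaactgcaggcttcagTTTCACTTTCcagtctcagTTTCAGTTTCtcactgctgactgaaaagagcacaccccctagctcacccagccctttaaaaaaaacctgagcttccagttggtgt
Isg15: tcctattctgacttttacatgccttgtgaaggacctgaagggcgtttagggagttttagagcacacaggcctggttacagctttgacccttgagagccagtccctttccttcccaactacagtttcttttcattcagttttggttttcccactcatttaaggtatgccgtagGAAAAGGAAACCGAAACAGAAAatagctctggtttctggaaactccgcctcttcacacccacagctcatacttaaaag
Irf1: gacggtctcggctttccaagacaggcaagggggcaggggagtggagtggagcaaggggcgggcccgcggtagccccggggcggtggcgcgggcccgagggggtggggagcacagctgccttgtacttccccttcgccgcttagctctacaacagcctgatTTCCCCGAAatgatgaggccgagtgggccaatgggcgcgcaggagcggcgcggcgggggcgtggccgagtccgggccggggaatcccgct
Ifit1 held matches from positions −104 and −85 relative to the start, and Isg15 held 3 that overlap, from positions −78, −72 and −66. Irf1 held no ISRE-type match in this window and a GAS-type match from position −90.

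RefSeq windows of 300 bases, from 250 bases before to 50 bases after a start, were found for 26 of the 35 genes, in 31 windows. An ISRE-type match was present in 11 of these windows, or 35.5%, against 3.44% of all 32851 windows of the same length. A GAS-type match was present in 7 windows, or 22.6%, against 8.3% of all windows. The genes with an ISRE-type match were Ifit1, Ifit3, Isg15, Oas1a, Oas3, Rsad2, Stat2, Bst2, Ddx58, Ifih1 and Eif2ak2. In Ddx58, Ifih1 and Eif2ak2 the match lay after the start. CpG dinucleotides, the sites that DNMT1 keeps methylated, numbered a median of 9 per window (range 1 to 43), against 7 in all windows. The window of Dazl, a germ cell gene with 28 CpG, serves as a reference below.

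Total counts ran from 25607595 to 33156732 per library, and 19374 genes passed the filter on low counts. Levels are given as RPKM, reads per kilobase of gene length scaled to library size, after TMM normalisation. Dnmt1 stood at 3.19 to 4.88 RPKM in wild type and 2.39 to 3.25 RPKM in the 6 CKO libraries (log2 change −0.51, adjusted p = 0.0727 in weak CKO and −0.53, adjusted p = 0.0433 in strong CKO, edgeR). Dazl, which is silenced by DNA methylation outside the germline, went from 0.0249 to 0.0332 RPKM in wild type to 16.5 to 32.8 RPKM in the CKO libraries. MUT_S_860_3 stood apart from the other libraries. Its erythroid transcripts took 1.29% of counts, against 0.383% to 0.733% in the other 8 libraries, and it held the highest level of most interferon-induced genes. Results of the strong CKO group are therefore given with and without it. Lung markers matched the labelled tissue in every library, with the surfactant gene Sftpc taking the most counts in 7 of the 9.

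**Figure D1:**
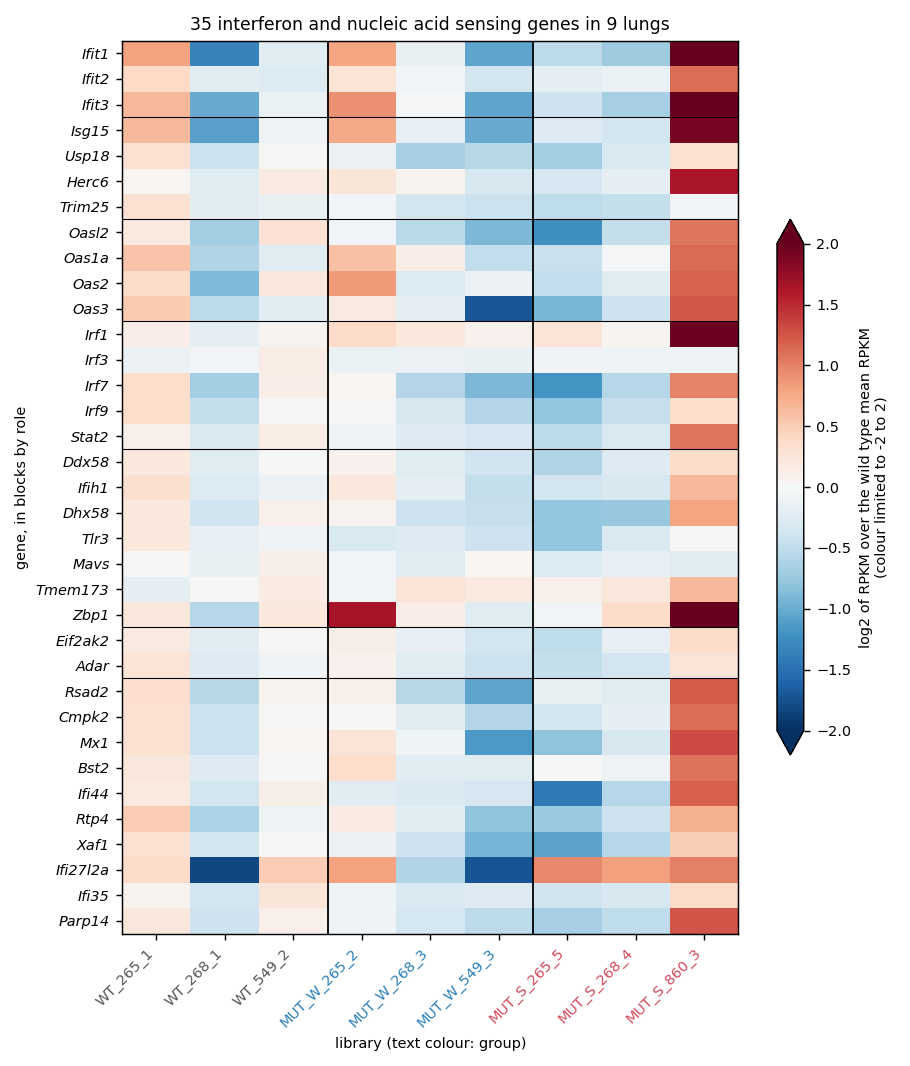
Level of each of the 35 genes (rows, in blocks by role) in each of the 9 libraries (columns), as the log2 of its RPKM over the wild type mean, with the colour limited to −2 to 2. The last column, MUT_S_860_3, holds the highest value in 30 of the 35 rows, and the other CKO columns are mostly pale or blue.

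None of the 35 genes was called in weak CKO. Their median log2 change from wild type was −0.18, with 9 changes above 0 and 26 below, against a median of −0.0077 over all tested genes. The changes ran from −0.45 to 0.75, with standard errors of 0.072 to 1.35, and the lowest adjusted p was 0.246 (edgeR quasi-likelihood test, Benjamini-Hochberg over all genes). None of the 35 reached an unadjusted p under 0.05. Over all genes, 14.5% were called in this comparison. DESeq2 and limma also called 0 of the 35. In bulk lung RNA, fewer cells of a type and less RNA per cell cannot be told apart.

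Wild type and weak CKO values overlapped for 33 of the 35 genes. The exceptions were Irf3 and Tlr3, whose weak CKO libraries all lay below wild type, as did 13.8% of all genes. None of the 35 had all weak CKO libraries above wild type, as did 17.7% of all genes. The wild type libraries themselves differed widely. WT_265_1 was above the wild type mean at 33 of the 35 genes and WT_268_1 at 1, with median log2 ratios to that mean of 0.30 and −0.40. The median coefficient of variation among wild type libraries was 23.2% for the 35 genes and 12.2% for all tested genes. In weak CKO it was 21.7% and 9.85%. Beside the wild type library of its number, MUT_W_265_2 was lower at 25 of the 35 genes and MUT_W_549_3 at 33. MUT_W_268_3 was higher at 26.

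In strong CKO 0 of the 35 genes was called as well, where 25.6% of all genes were. The changes ran from −0.33 to 3.13, with standard errors of 0.072 to 1.34 and a lowest adjusted p of 0.125. Their median was 0.27 (−0.0010 over all genes), with 22 above 0 and 13 below. The 2 genes with an unadjusted p under 0.05 were Mavs (−0.21 ± 0.094, SE) and Tmem173 (0.35 ± 0.15). DESeq2 and limma called 0. MUT_S_860_3 was the highest of the 9 libraries at 30 of the 35 genes, a place it held at 10.3% of all genes, and exceeded the next library by more than 1.5 times at 17 of the 35, against 1.06% of all genes. The exceptions at which it was not the highest were Usp18, Trim25, Irf3, Tlr3 and Mavs. The summed level of the 35 genes was 375 RPKM in MUT_S_860_3, 147 and 155 RPKM in MUT_S_265_5 and MUT_S_268_4, 137 to 223 RPKM in wild type and 131 to 212 RPKM in weak CKO. The coefficient of variation within strong CKO had a median of 59.9% for the 35 genes and 8.83% for all tested genes, and between MUT_S_265_5 and MUT_S_268_4 alone it was 10.01% for the 35.

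Without MUT_S_860_3 the direction of the strong CKO comparison turned. Of the 35 changes 4 were above 0 and 31 below, with a median of −0.40. Called as lower were 3 genes, Ifi44 (−0.92 ± 0.24, adjusted p = 0.0301), Tlr3 (−0.51 ± 0.15, adjusted p = 0.0451) and Dhx58 (−0.76 ± 0.23, adjusted p = 0.0472), where 6.94% of all genes were called lower. None was called higher, where 11.3% of all genes were. At an unadjusted p under 0.05 there were 10 of the 35, and the share of all genes at that threshold is not given here. Both remaining libraries lay below every wild type library at 11 genes (Trim25, Stat2, Ddx58, Ifih1, Dhx58, Tlr3, Mavs, Adar, Ifi44, Xaf1 and Parp14), where 22.3% of all genes did. MUT_S_265_5 was the lowest of the 9 libraries at 17 of the 35 genes, against 16% of all genes. The fall was not even when each was set beside the wild type library of its number. MUT_S_265_5 was lower than WT_265_1 at 31 of the 35 genes (median log2 difference −0.82). MUT_S_268_4 was higher than WT_268_1 at 23 and lower at 12 (median 0.11). In both cases 49% of all genes were lower.

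**Figure D2:**
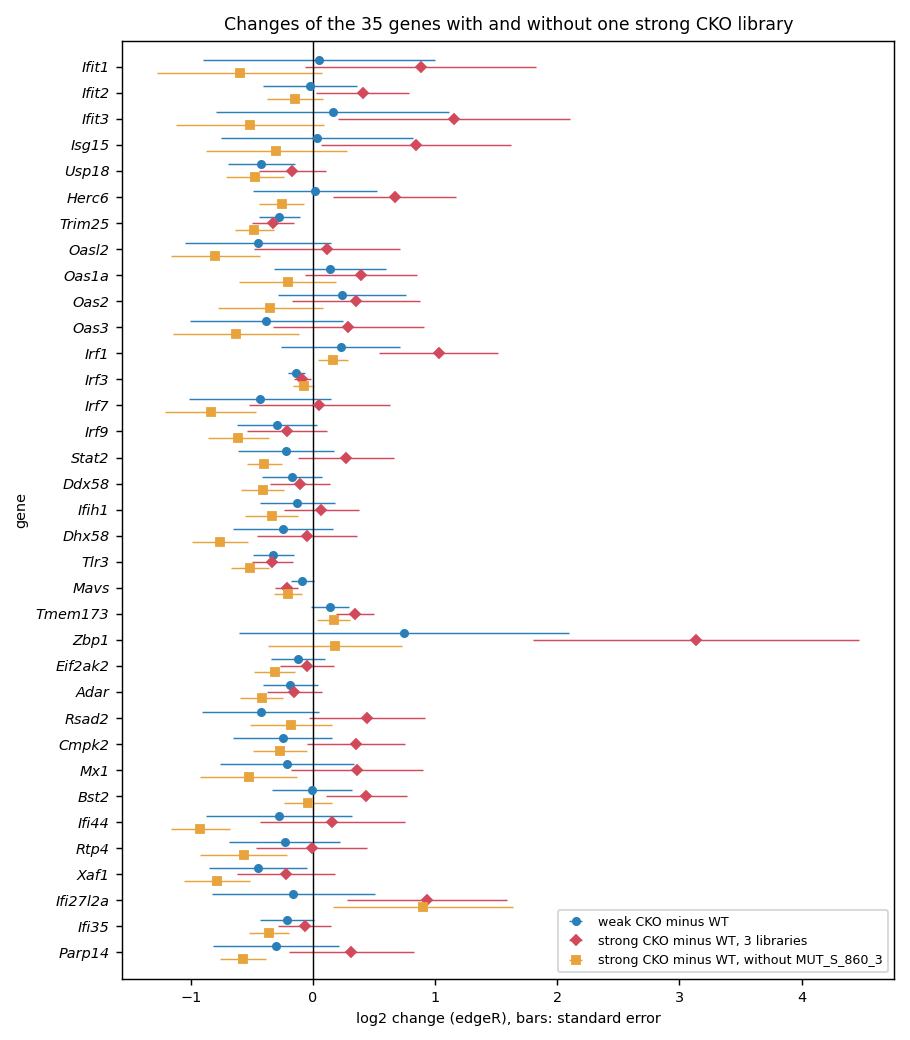
Log2 change of each gene from wild type, with standard errors as bars, for weak CKO (circles), strong CKO with all 3 libraries (diamonds) and strong CKO without MUT_S_860_3 (squares). Leaving out that library moves the median change from 0.27 to −0.40, and 31 of the 35 squares lie below 0.

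With all libraries in, strong CKO values overlapped wild type for all but Mavs, which was lower as were 19% of all genes, and Ifi27l2a, which was higher as were 22.7% of all genes. Set against weak CKO, the 35 genes of strong CKO had a median difference of 0.43 with 32 above 0, and without MUT_S_860_3 only 4 were above 0. None was called, with a lowest adjusted p of 0.883. Over all genes 0.00516% were called, which is 1 gene.

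The IFIT proteins bind foreign RNA and block its translation, and their 3 genes lie together on chromosome 19. Ifit1 (ENSMUSG00000034459, chromosome 19, 34640871 to 34650009 in GRCm38) measured 9.08, 2.06 and 4.50 RPKM in WT_265_1, WT_268_1 and WT_549_2. It measured 8.97, 4.71 and 2.51 RPKM in MUT_W_265_2, MUT_W_268_3 and MUT_W_549_3, and 3.64, 3.18 and 21.9 RPKM in MUT_S_265_5, MUT_S_268_4 and MUT_S_860_3. The groups overlapped, the last library was 2.41 times the next, and the wild type libraries differed by 4.40 times. The strong CKO change was 0.88 ± 0.95 (adjusted p = 0.54), and −0.60 ± 0.67 without MUT_S_860_3.

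Ifit3 (ENSMUSG00000074896, chromosome 19, 34583531 to 34588731) was likewise highest in MUT_S_860_3, with 5.99, 1.88 and 3.44 RPKM in wild type, 7.11, 3.72 and 1.81 RPKM in weak CKO and 2.84, 2.39 and 19.8 RPKM in strong CKO, libraries in the order above. Its strong CKO change was 1.16 ± 0.95, and −0.52 ± 0.61 without MUT_S_860_3. The neighbouring paralog Ifit3b is close enough in sequence that reads may have been shared between the pair. Ifit2 ran from 7.05 to 11.3 RPKM in wild type, 6.65 to 10.4 in weak CKO, and 7.54, 7.78 and 18.6 RPKM in strong CKO. Its strong CKO change was 0.41 ± 0.38, and −0.15 ± 0.23 without MUT_S_860_3.

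ISG15 is a ubiquitin-like protein attached to other proteins during infection, USP18 removes it and also dampens interferon receptor signalling, HERC6 is the mouse ligase that attaches it, and TRIM25 activates RIG-I. Isg15 (ENSMUSG00000035692, chromosome 4, 156199424 to 156200818) measured 19.5, 5.79 and 11.8 RPKM in wild type, 20.8, 11.0 and 6.15 RPKM in weak CKO and 10.4, 9.55 and 46.2 RPKM in strong CKO. Herc6 (ENSMUSG00000029798, chromosome 6, 57581000 to 57664632) measured 1.09, 0.893 and 1.20 RPKM in wild type, 1.26, 1.12 and 0.845 RPKM in weak CKO and 0.836, 0.929 and 3.277 RPKM in strong CKO. In both genes the high strong CKO mean came from MUT_S_860_3, and the other strong CKO libraries lay within or below the wild type range. The strong CKO changes were 0.84 ± 0.78 for Isg15 and 0.67 ± 0.50 for Herc6, and −0.30 ± 0.58 and −0.26 ± 0.18 without that library. Usp18 (4.09 to 8.14 RPKM in strong CKO, 4.90 to 8.18 in wild type) and Trim25 (9.29 to 12.7 and 11.4 to 16.2 RPKM) did not exceed the highest wild type library even there. Their strong CKO changes were −0.17 ± 0.28 and −0.33 ± 0.17, and −0.47 ± 0.24 and −0.48 ± 0.16 without MUT_S_860_3.

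The OAS enzymes make a small signalling nucleotide when they bind double-stranded RNA. Oas1a, Oas2 and Oas3 were low everywhere, with 0.0623 to 3.80 RPKM over all libraries, and Oasl2 ran from 1.98 to 9.82 RPKM. All 4 were highest in MUT_S_860_3, by 1.26 to 1.72 times over the next library, and all 4 strong CKO changes (0.12 to 0.39) turned below 0 without it (−0.80 to −0.21). The OAS1 genes are close paralogs, and their reads may not have been fully separated.

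**Figure D3:**
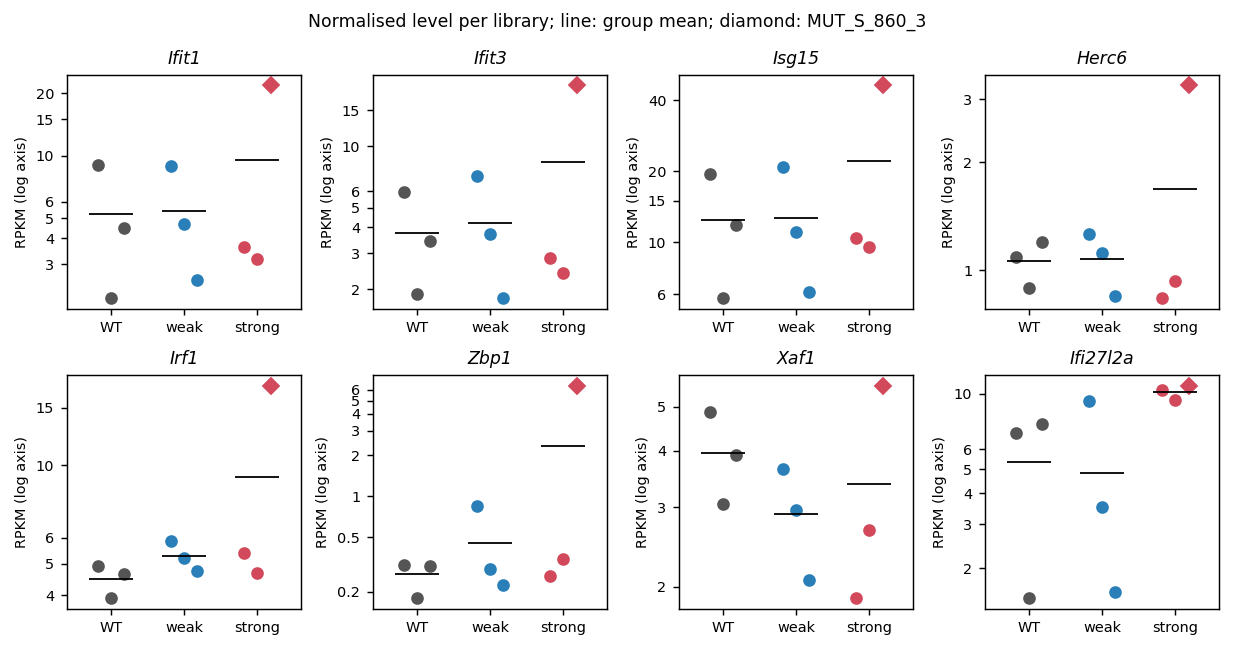
RPKM per library on log axes for the 8 genes with the largest change in weak or strong CKO, with group means as lines and MUT_S_860_3 as a diamond. In 7 of the 8 panels the diamond lies above the other strong CKO points by a wide gap. In the panel of Ifi27l2a all strong CKO points lie between 9.47 and 10.8 RPKM.

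Among the transcription factors, Irf1 had the largest strong CKO change with all libraries in. IRF1 drives antigen presentation and antiviral genes and is itself induced by interferon. Irf1 (ENSMUSG00000018899, chromosome 11, 53770014 to 53778374) measured 4.92, 3.92 and 4.65 RPKM in wild type, 5.86, 5.20 and 4.75 RPKM in weak CKO and 5.38, 4.67 and 17.5 RPKM in strong CKO. Only MUT_S_860_3 was far from the rest, at 2.99 times the next library. Its change was 1.03 ± 0.49 (adjusted p = 0.169), and 0.17 ± 0.12 without MUT_S_860_3.

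Irf7, the amplifier of interferon production, measured 1.78, 0.864 and 1.52 RPKM in wild type, 1.42, 0.925 and 0.743 RPKM in weak CKO and 0.609, 0.934 and 2.77 RPKM in strong CKO. Its change of 0.052 ± 0.58 there became −0.84 ± 0.37 without MUT_S_860_3. Irf9 and Stat2, whose products act together at ISRE elements, differed in how far MUT_S_860_3 stood out. It was 1.89 times the next library at Stat2 (9.37 RPKM) and level with WT_265_1 at Irf9 (7.52 and 7.51 RPKM). Without it the strong CKO changes went from 0.27 ± 0.39 to −0.40 ± 0.14 for Stat2 and from −0.21 ± 0.33 to −0.61 ± 0.25 for Irf9. Irf3, whose product is activated by phosphorylation and not by induction, lay between 4.14 and 5.08 RPKM in all 9 libraries and changed by −0.13 ± 0.072 in weak CKO and −0.087 ± 0.072 in strong CKO.

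None of the 7 sensor and adaptor genes was called with all libraries in. The RNA sensor genes Ddx58, Ifih1 and Dhx58 measured 4.71 to 6.42, 2.33 to 3.53 and 1.05 to 1.60 RPKM in wild type. They measured 3.65 and 4.63, 2.18 and 2.25, and 0.806 and 0.812 RPKM in MUT_S_265_5 and MUT_S_268_4, below every wild type library in each case. In MUT_S_860_3 they reached 7.18, 4.42 and 2.37 RPKM, above every other library. Tlr3 measured 1.89, 1.45 and 1.55 RPKM in wild type, 1.32, 1.36 and 1.22 RPKM in weak CKO and 0.953, 1.31 and 1.61 RPKM in strong CKO. Its change was −0.32 ± 0.17 in weak CKO and −0.33 ± 0.17 in strong CKO, with adjusted p of 0.246 and 0.184.

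The adaptor genes changed by little. Mavs lay between 2.67 and 2.88 RPKM in strong CKO and between 2.89 and 3.49 RPKM in wild type, and its change was as large without MUT_S_860_3 (−0.21 ± 0.11). Tmem173 lay between 5.48 and 6.97 RPKM in wild type and measured 6.71, 7.28 and 9.85 RPKM in strong CKO, and its change fell from 0.35 to 0.17 ± 0.14 without that library.

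Zbp1 had the largest change of the 35 and the least even one. ZBP1 senses nucleic acid in the Z form and can trigger necroptosis. Zbp1 (ENSMUSG00000027514, chromosome 2, 173206612 to 173218923) measured 0.314, 0.180 and 0.311 RPKM in wild type, 0.842, 0.293 and 0.226 RPKM in weak CKO and 0.259, 0.345 and 6.44 RPKM in strong CKO. MUT_S_860_3 was 7.65 times the next library, and every other library was under 1 RPKM. The fitted strong CKO change of 3.13 ± 1.34 (adjusted p = 0.135) became 0.18 ± 0.55 without it.

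Eif2ak2 encodes PKR, which stops translation when it binds double-stranded RNA, and Adar encodes an editor that marks such RNA as self. Both were slightly lower in strong CKO (−0.050 ± 0.22 and −0.15 ± 0.23), and −0.31 ± 0.17 and −0.42 ± 0.18 without MUT_S_860_3. Neither was called in any comparison.

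The 10 remaining effectors include the virus tether BST2, the GTPase MX1 and viperin (Rsad2) with its neighbour Cmpk2. All 10 were highest in MUT_S_860_3. Bst2 measured 31.6, 22.4 and 26.6 RPKM in wild type, 34.2, 23.3 and 22.8 RPKM in weak CKO and 27.04, 24.9 and 57.1 RPKM in strong CKO (0.44 ± 0.33, and −0.039 ± 0.19 without MUT_S_860_3). Parp14 (16.5 RPKM in that library and at most 8.05 elsewhere) and Ifi44 (8.46 and at most 4.22) exceeded the next library by 2.05 and 2.01 times. Mx1 was low in every library, at 0.0693 to 0.376 RPKM. Rtp4, Xaf1 and Ifi35 exceeded the next library by 1.10 to 1.15 times.

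Xaf1, an interferon-induced gene that antagonises inhibitors of apoptosis (ENSMUSG00000040483, chromosome 11, 72301629 to 72313733), measured 4.88, 3.06 and 3.91 RPKM in wild type, 3.64, 2.96 and 2.07 RPKM in weak CKO and 1.89, 2.67 and 5.58 RPKM in strong CKO. MUT_S_265_5 and MUT_S_268_4 lay below all wild type values while MUT_S_860_3 lay above them. The change of −0.22 ± 0.40 became −0.79 ± 0.27 without that library (adjusted p = 0.0838).

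Ifi27l2a was the member whose strong CKO libraries lay together above wild type. It encodes a small interferon-induced membrane protein (ENSMUSG00000079017, chromosome 12, 103442167 to 103443680) and measured 6.94, 1.52 and 7.59 RPKM in wild type, 9.33, 3.51 and 1.61 RPKM in weak CKO and 10.4, 9.47 and 10.8 RPKM in strong CKO. MUT_S_860_3 was 1.04 times the next library. Wild type spread 4.99-fold, and the change of 0.93 ± 0.65 was not called (adjusted p = 0.332). It was 0.90 ± 0.74 without MUT_S_860_3.

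The order of levels between genes depends on the length used. The deposited gene length was within 1% of the summed length of all annotated transcripts for 34 of the 35 genes, and its ratio to the length of their merged exons had a median of 1.81 over the 35 genes. The ratio was 0.843 for Tmem173 and above 1 for the other 34, up to 4.60. With the deposited length the highest wild type means were those of Bst2 (26.9 ± 4.60 RPKM, SD, n = 3), Trim25 (13.2 ± 2.68) and Eif2ak2 (12.7 ± 1.73). With merged exons they were Bst2 (36.0 RPKM), Trim25 (28.8 RPKM) and Irf3 (18.2 RPKM). Differences between libraries within a gene do not depend on this choice.

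Of 11 listed interferon genes, Ifnk, Ifnz and Ifng were matched in the table, with 0 to 5 counts in any library, too few to be tested. The others, Ifnb1 and the listed Ifna genes among them, were not analysed here. Ifng held 1, 3 and 3 counts in wild type, 3, 2 and 3 in weak CKO and 3, 4 and 5 in strong CKO.

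Of 11 genes for interferon receptors and JAK-STAT signalling, edgeR called 0 in weak CKO (2 at an unadjusted p under 0.05). The receptor kinase gene Jak1 and the type II interferon receptor gene Ifngr1, the most abundant of them, stood at −0.043 ± 0.063 and −0.28 ± 0.12 there. In strong CKO 0 rose and 1 fell. Over all genes 14.5% were called in weak CKO and 25.6% in strong CKO, in either direction. Ifngr1 went from 24.04, 15.7 and 18.8 RPKM in wild type to 14.3, 15.03 and 14.5 RPKM (−0.42 ± 0.12, adjusted p = 0.0327). The call ended without WT_265_1 (−0.24), WT_549_2 (−0.45), MUT_S_265_5 (−0.40), MUT_S_268_4 (−0.43) or MUT_S_860_3 (−0.41).

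Of 19 tested genes for other sensors and signalling, 3 were called in weak CKO and 4 in strong CKO in either direction, shares close to the 14.5% and 25.6% of all genes. Those called higher were Irf5 and Traf3 in both comparisons. Irf5, a factor of inflammatory cytokine induction, rose by 0.54 ± 0.16 in weak CKO (adjusted p = 0.0468) and 0.98 ± 0.16 in strong CKO (adjusted p = 0.00185). Traf3, which links MAVS to its kinases, rose by 0.33 ± 0.095 (adjusted p = 0.0426) and 0.57 ± 0.095 (adjusted p = 0.00213). The kinase gene Tbk1 fell in strong CKO (−0.20 ± 0.058, adjusted p = 0.0293).

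The strong CKO calls of Irf5 and Traf3 held without each library in turn, with values of 0.82 and 0.52 without MUT_S_860_3. That of Tbk1 ended without WT_265_1 (−0.18), WT_268_1 (−0.21), MUT_S_265_5 (−0.17), MUT_S_268_4 (−0.20) or MUT_S_860_3 (−0.21). The weak CKO call of Irf5 ended without any one of WT_265_1 (0.54), WT_268_1 (0.51), WT_549_2 (0.59), MUT_W_265_2 (0.54), MUT_W_268_3 (0.54), MUT_W_549_3 (0.56) or MUT_S_265_5 (0.55). That of Traf3 ended without WT_265_1 (0.26), WT_268_1 (0.34), MUT_W_265_2 (0.28), MUT_W_268_3 (0.35), MUT_S_265_5 (0.34) or MUT_S_860_3 (0.34).

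Of 53 tested interferon-stimulated genes beyond the 35, edgeR called 0 in weak CKO (3 at an unadjusted p under 0.05), and 2 rose and 0 fell in strong CKO. Over all genes 14.5% and 25.6% were called in either direction in the same comparisons. The most abundant, the virus entry blockers Ifitm3 and Ifitm2, stood at −0.20 ± 0.29 and −0.08 in weak CKO. The chemokine gene Cxcl10 rose in strong CKO (5.89 ± 1.08, adjusted p = 0.00621), with 0.0347, 0.0257 and 0.0371 RPKM in wild type and 0.912, 0.482 and 4.36 RPKM in strong CKO. It measured 0.616, 0.509 and 0.205 RPKM in weak CKO (3.77 ± 1.13, adjusted p = 0.0635). Its wild type counts were only 5, 4 and 6, so the size of both changes is uncertain. All 6 CKO libraries lay above all wild type libraries. Over all genes, 17.7% had all weak CKO libraries above wild type and 22.7% all strong CKO libraries. Without MUT_S_860_3 the strong CKO change of Cxcl10 was 4.43 ± 0.54 (adjusted p = 9.08e-04). On the log2(RPKM + 1) scale it was 1.20 and not called. The weak CKO change was called too without MUT_S_268_4 or MUT_S_860_3 (3.77 in each case), with DESeq2 (3.77, adjusted p = 8.33e-04) and with only the 2 groups compared (3.77, adjusted p = 0.00273). Without MUT_S_860_3 the weak CKO comparison called 1 of the 53 higher, Cxcl10, and 2 lower, Helz2 (−0.51 ± 0.092) and Gbp4 (−0.81 ± 0.16). The share of all genes called in that fit is not given here. With all libraries in it was 14.5% in either direction.

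The IFIT-like gene Ifit1bl1, which shares sequence with Ifit1, rose by 1.48 ± 0.47 (adjusted p = 0.0449). That call ended without WT_265_1 (1.72), WT_268_1 (1.20), WT_549_2 (1.57), MUT_W_265_2 (1.48), MUT_W_268_3 (1.49), MUT_W_549_3 (1.48), MUT_S_265_5 (1.59) or MUT_S_860_3 (0.84). Without MUT_S_860_3, Cxcl10 remained as the 1 gene called higher and 4 were called lower, Gbp4 (−1.005), Helz2 (−0.69), Slfn5 (−0.997) and Pml (−0.29), where the same background shares of 11.3% and 6.94% apply.

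MUT_S_860_3 was the highest library at 45 of these 53 genes and over 1.5 times the next at 34, against 10.3% and 1.06% of all genes. The following genes were picked after their values were seen. The guanylate-binding proteins, GTPases that attack the vacuoles of intracellular pathogens, had 6 tested genes, all highest in MUT_S_860_3, by 3.46 to 17.3 times over the next library (median 11.7). Gbp2 held 4.76 to 5.99 RPKM in wild type, 4.98 to 7.62 in weak CKO, 5.94 to 6.07 in the other strong CKO libraries and 131 RPKM in MUT_S_860_3. The immunity-related GTPases, with 5 tested genes, exceeded the next library by 4.28 to 12.6 times (median 5.20). Nlrc5, the activator of MHC class I genes, held 11 to 46 counts in 8 libraries and 2043 in MUT_S_860_3, 43.6 times the next by RPKM. None of these was called in strong CKO, where the lowest adjusted p was 0.126 for the guanylate-binding proteins and 0.157 for the immunity-related GTPases.

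**Figure D4:**
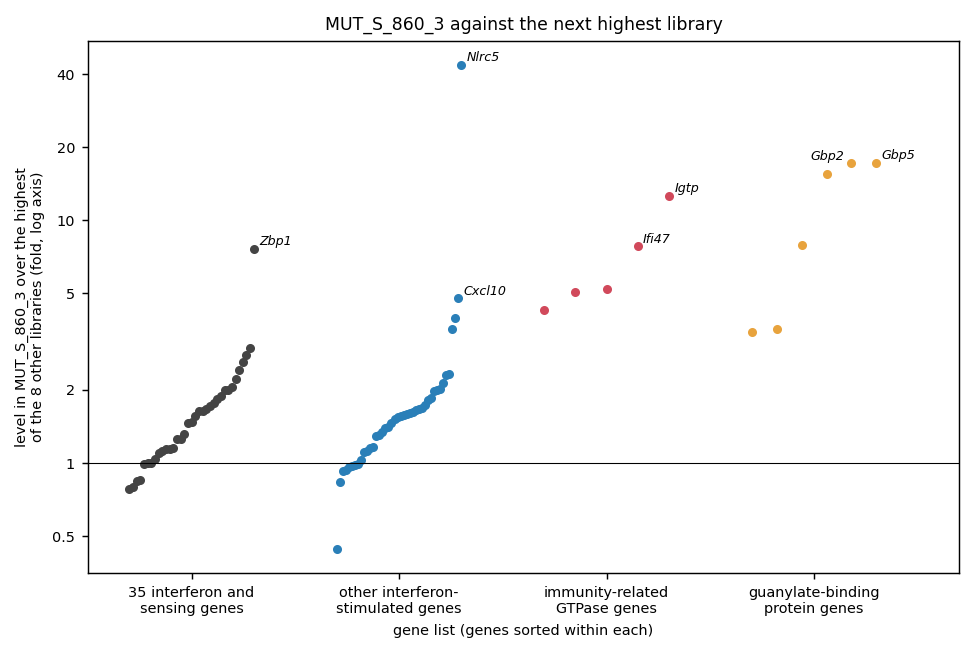
Level in MUT_S_860_3 over the highest of the other 8 libraries (log axis) for each gene of 4 lists, sorted within a list, with 1 marked by a line. The 35 genes have a median of 1.48 and a maximum of 7.65 (Zbp1), and the guanylate-binding protein genes lie between 3.46 and 17.3.

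Markers of blood and immune cells were read beside these values. In MUT_S_860_3 the summed level of 9 erythroid genes was 2.25 times the wild type mean (0.719 to 1.35 in wild type, 0.692 to 0.807 in weak CKO, 1.29 and 1.23 in the other strong CKO libraries), and the haemoglobin gene Hbb-bs stood at 6056 RPKM. The part of blood in the interferon-induced genes was not tested. With the erythroid genes left out of the library sizes, 0 of the 35 genes was called in each comparison, as with them in. This only rescales the libraries and does not test the part of blood. Of 15 macrophage and monocyte markers 6 rose and 1 fell in weak CKO, and 9 rose and 1 fell in strong CKO (6 and 1 without MUT_S_860_3). Over all genes 14.5% and 25.6% were called in either direction, and without that library 11.3% were called higher and 6.94% lower. The complement gene C1qa measured 13.3 to 18.52 RPKM in wild type, 32.8 to 36.9 in weak CKO, and 40.7, 29.2 and 52.9 RPKM in strong CKO. MUT_S_860_3 was the highest of the 9 libraries at 9 of the 15, against 10.3% of all genes. The sum over all 15 was 1.06 times the wild type mean there, within the wild type range of 0.677 to 1.40, and the lysozyme gene Lyz2 made up 73.3% to 91.3% of that sum. Without Lyz2, left out after the values were seen, the other 14 markers summed to 186 RPKM in MUT_S_860_3, 71.1 to 94.3 RPKM in wild type, 125 to 146 RPKM in weak CKO and 142 and 122 RPKM in the other strong CKO libraries. That is 2.29 times the wild type mean and the highest of the 9. The part of these cells in the interferon-induced genes was not tested.

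The other immune marker lists did not set MUT_S_860_3 above the remaining libraries. The plasmacytoid dendritic cell marker Siglech, of the cells that make most type I interferon in blood, held 5 counts in MUT_S_860_3 and 7 to 20 elsewhere, and the list of 4 such markers without Bst2 summed to 1.19 times wild type there (1.58 and 1.21 in the other strong CKO libraries). Of these, Cox6a2, also a subunit gene of muscle cytochrome oxidase, was called in strong CKO (1.07 ± 0.28, adjusted p = 0.0193, and 1.20 without MUT_S_860_3). The 10 lymphocyte markers summed to at most 1.07 RPKM in any library, and the 9 neutrophil markers to 22.8 to 62.4 RPKM in wild type, 16.5 to 31.2 in weak CKO and 15.9 to 27.1 in strong CKO. All 8 neutrophil markers tested had changes below 0 in both CKO groups (medians −0.81 and −0.64), and 1, Ngp, was called lower in each. The 4 lymphocyte markers tested all had changes above 0 in both CKO groups (medians 1 and 0.96). Of these 4, 0 were called in weak CKO and 1 was called higher in strong CKO. Without MUT_S_860_3, 1 was called higher in strong CKO and 1 lay below 0. Of the immune markers, the neutrophil gene Elane was at 0 counts in MUT_S_860_3. Endothelial markers fell at 3 of 8 genes in weak CKO and 7 of 8 in strong CKO, and lung mesenchyme markers at 5 and 7 of 8 (7 and 6 in strong CKO without MUT_S_860_3). For all these lists, 14.5% and 25.6% of all genes were called in either direction in weak and strong CKO. In strong CKO without MUT_S_860_3, 11.3% were called higher and 6.94% lower. The endothelial sum in that library was 0.628 times wild type, between those of the other strong CKO libraries (0.516 and 0.687). The mesenchyme sum was 0.824 times wild type, against 0.803 and 0.807 in the others.

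**Figure D5:**
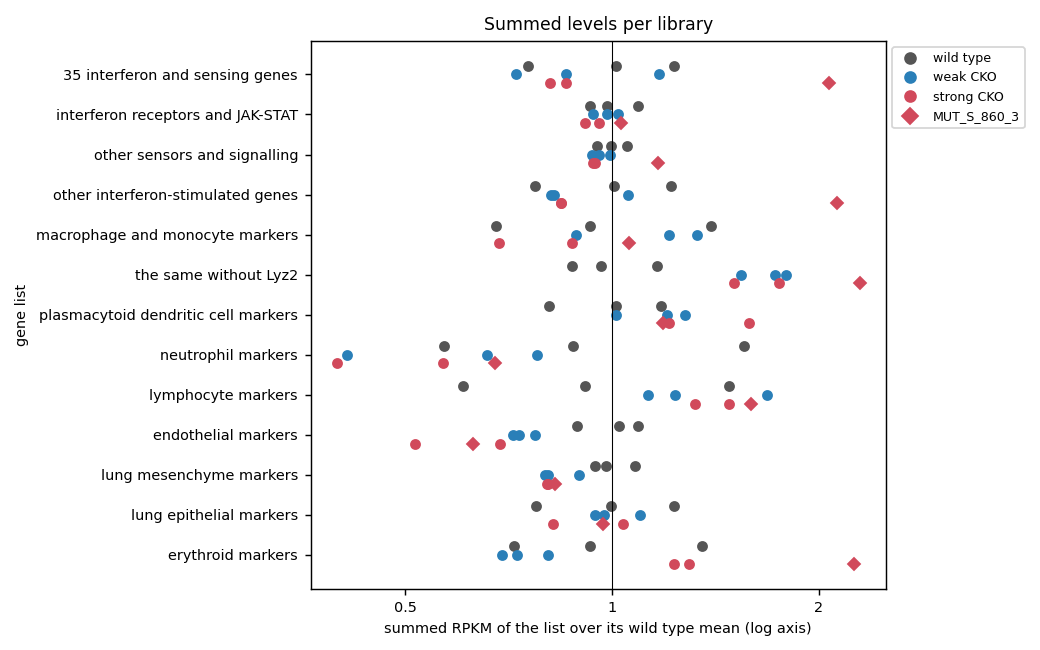
Summed RPKM of each gene list in each library over the wild type mean of that list (log axis), with MUT_S_860_3 as a diamond. That library is the rightmost point for the 35 genes, the other interferon-stimulated genes (2.12), the erythroid markers (2.25), the macrophage markers without Lyz2 (2.29) and other sensors and signalling (1.17). For the remaining lists it lies among the other libraries, and with Lyz2 in the macrophage list does so too (1.06).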

How the data were processed

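RNA sequencing counts of 9 whole lungs (3 wild type, 3 weak CKO, 3 strong CKO) were used, from TruSeq libraries read as single reads of 75 nt. Counts per gene, not normalised, were deposited by the authors. RPKM values, per the file headers, were deposited beside them and equalled counts over the deposited gene length and over 1.03 to 1.13 times the library total. The submitters' processing notes name the genome GRCm38.p6, the aligner STAR and edgeR 3.28.1, besides Trimmomatic 0.36, cutadapt 2.5 and FastQC 0.11.8. How reads were counted, whether by strand and how multiply mapped reads were treated are not given in the sources used here. Genes that overlap, lie antisense or have close paralogs are uncertain in their counts for that reason.

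Counts were tested with edgeR 4.0.16 in R 4.3.3 (TMM factors 0.939 to 1.04, filterByExpr by group, robust quasi-likelihood fit of all 9 libraries, two-sided), adjusted by Benjamini-Hochberg over every tested gene. A gene is called at an adjusted p under 0.05. Counts at an unadjusted p under 0.05 have no share of all genes beside them and are only descriptive. The procedure was tested on simulated data. Errors of changes are standard errors. RPKM printed here was recomputed from counts with TMM factors. DESeq2 1.42.0, limma 3.58.1 on log2(RPKM + 1) and log2(RPKM + 0.1), other scalings and filters, and leaving out each library were alternatives. All replicate pairs differed beyond counting noise (chi-square per degree of freedom 13.6 to 33.4).

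The genes and lists were chosen with earlier results of these data known. Values per library are given for the 8 of the 35 genes with the largest change. Of other lists, up to 4 called genes, or the 2 most abundant where none was called, are named, besides genes said to be picked afterwards. Ifnb1, Ifna1, Ifna2, Ifna4, Ifna5, Ifne, Ifnl2, Ifnl3, Trex1, Ifi44l and Ahsp were not analysed here. Promoter windows are RefSeq's, and coordinates come from GENCODE. Results for a few listed genes are not reported here.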

Additional observations from a re-analysis of the deposited data

How the results depend on the processing

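Under 18 alternatives per comparison, 0 of the 35 genes was called in weak CKO and in strong against weak CKO, and 0 was called higher in strong CKO. Calls as lower in strong CKO were 3 without MUT_S_860_3 (0 to 3 over the libraries left out), 3 with the replicate block and 0 otherwise. Over all genes 6.94% were called lower without MUT_S_860_3, and the share with the block is not given here. Strong CKO changes above 0 numbered 4 to 30 of 35 over the libraries left out, those of strong against weak CKO 4 to 34, and those of weak CKO 2 (without MUT_W_265_2) to 15 (without MUT_W_549_3). With 1 library left out, all genes called were 1310 to 2828 in weak CKO, 3101 to 4983 in strong CKO and 1 to 4 between the CKO groups. The last count was 4 with only the 2 groups compared, 3 with the block, 10 with DESeq2 and 2 with limma on log2(RPKM + 0.1).

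Single genes turned sign. Over the libraries left out, weak CKO changes ran from −0.53 to 0.71 for Ifit1, −0.44 to 0.66 for Ifit3, −0.52 to 0.52 for Isg15, −0.11 to 0.16 for Herc6, −0.045 to 1.07 for Zbp1 and −1.06 to 0.26 for Ifi27l2a. Strong CKO changes ran from −0.60 to 1.54 for Ifit1, −0.52 to 1.65 for Ifit3, −0.30 to 1.33 for Isg15, −0.26 to 0.99 for Herc6, −0.76 to 0.22 for Dhx58, −0.92 to 0.57 for Ifi44 and −0.79 to 0.068 for Xaf1, with the lowest value of each without MUT_S_860_3. Of these, Dhx58 and Ifi44 were called as lower at that lowest value. With all libraries in, the strong CKO change of Ifi44 was 0.16 ± 0.60 with edgeR. It was −0.10 and −0.21 on the log2(RPKM + 1) and log2(RPKM + 0.1) scales. An added constant shrinks changes of low genes, and what turned the sign at Ifi44 was not tested.

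Whether the library number pairs the samples was not settled. Deviations correlated at 0.299 for WT_265_1 with MUT_W_265_2 and at 0.346 for WT_549_2 with MUT_W_549_3. Those of WT_268_1 with MUT_W_268_3 correlated at −0.0869. Differently numbered wild type and weak CKO libraries correlated at −0.38 to 0.0745. The 2 same-numbered pairs with strong CKO gave 0.108 and the differently numbered ones −0.108, which are mirror images of the same value. With the number as a replicate block, MUT_S_860_3 has no partner and adds nothing to the strong CKO changes, 4 of which were above 0 (4 against weak CKO too). Trim25 (−0.54, adjusted p = 0.0106), Dhx58 (−0.76, adjusted p = 0.0216) and Tlr3 (−0.57, adjusted p = 0.0496) were called as lower. The share of all genes called lower with the block is not given here. Under the block Ifit1 stood at −0.67, Ifit3 at −0.67, Isg15 at −0.38, Herc6 at −0.29 and Ifi44 at −0.92.

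Each group had 3 libraries, and standard errors reached 1.35 with MUT_S_860_3 in. Changes of this size could not be told from 0 for the most variable genes. Some genes under 1 RPKM rest on few counts, such as Oas3 (20 to 145) and Mx1 (36 to 183). Others do not, such as Herc6, with 266 counts at 0.836 RPKM in MUT_S_265_5.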
